A study of Danio rerio with 34 samples.

Results

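Oxidative phosphorylation was followed through the genes that encode its machinery, in testis RNA of adult zebrafish. Members were chosen by symbol alone. The mitochondrial genome supplied symbols that start with mt-nd, mt-co, mt-cyb or mt-atp, and the nuclear genome those that start with nduf, sdh, uqcr, atp5, or cox followed by a digit. The rule found 126 genes among 35117 gene identifiers, of which 27000 carried a symbol. Of these, 13 came from the mitochondrial genome and 113 from the nuclear genome. Enough counts for testing were present for 125 of them, within 24053 genes tested in all. The one left out, ndufa4l2b, had at most 0.037 CPM as a group mean, CPM being counts scaled to the size of the library. By the usual naming, 91 nuclear members encode subunits and 22 encode assembly or regulatory factors.

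As background, the respiratory chain passes electrons from NADH and succinate to oxygen. Complex I oxidizes NADH and complex II oxidizes succinate. Complex III passes the electrons to cytochrome c, complex IV reduces oxygen, and complex V makes ATP from the proton gradient that complexes I, III and IV build. Complex II is built from nuclear genes alone, whereas the other complexes combine subunits of both genomes. Mitochondrial genes are transcribed together as long precursors that are then cut, and nuclear genes are transcribed one by one. In the testis, germ cells and somatic cells differ in how much they rely on respiration and on glycolysis.

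The 18 RNA libraries fall into 3 groups of 6. Adult fish received the carrier DMSO (0 nM), 3 nM PCB126 or 10 nM PCB126 for 24 h and were then kept in clean water for 7 days before the testis was taken. This chlorinated biphenyl acts like dioxin, through the aryl hydrocarbon receptor. The series describes its replicates as biological, and the labels give no age beyond adult and no strain.

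Library totals ran from 16243660 to 29849891 counts. At that depth 3 counts equal 0.0914 to 0.194 CPM, which covers counting error only. The 13 germ cell markers were counted in every group, with summed levels of 7055 to 10780 CPM per library, and Sertoli and Leydig cell markers reached 2117 to 4394 CPM and 267.5 to 1874 CPM. The first principal component of all genes, which held 39.7% of the variance, placed 5 exposed libraries apart from the other 13. They comprise replicates 4 and 6 of the 3 nM group, with replicates 1, 5 and 6 of the 10 nM group. The calls at 10 nM are given with all libraries and then without these 5. That leaves replicates 2, 3 and 4 at 10 nM and replicates 1, 2, 3 and 5 at 3 nM. Such smaller groups have less power, and calls over all genes at 10 nM went from 2609 to 468. A call lost in that fit therefore does not show that a change is absent.

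The share of each library taken by the 2 groups of genes is shown first, since it holds the pattern on which the rest turns. In DMSO the 13 mitochondrial genes took 1.68% to 2.94% of the counts, with a median of 2.28%. At 3 nM they took 2.21% to 4.79%, with a median of 3.04%, and at 10 nM 2.53% to 7.22%, with a median of 4.52%. The ranges overlap between all groups. Within the 10 nM group, replicates 1, 5 and 6 stood at 6.90%, 7.22% and 5.89%, and replicates 2, 3 and 4 at 3.15%, 2.53% and 2.76%.

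The 113 nuclear genes moved over a narrower range. Their mean share (± SD, n = 6 each) was 1.25% ± 0.0677 of the DMSO counts, against 1.57% ± 0.347 and 1.6% ± 0.347 in the 3 nM and 10 nM groups. Only 4 libraries stood high, with 1.93% and 2.09% in 3 nM replicates 4 and 6 and 2.06% and 2.02% in 10 nM replicates 1 and 5. The other 14 libraries lay between 1.19% and 1.46%. The library 10 nM replicate 6 was one of these, with 1.41%, although its mitochondrial share was among the highest. Its nuclear share was still above the DMSO maximum of 1.36%. As CPM, its nuclear genes summed to 16190, against 10830 to 13360 in the DMSO libraries.

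The ratio of mitochondrial to nuclear counts was uneven as well. On the log2 scale its mean ± SD over 6 libraries was 0.863 ± 0.24 for DMSO, 0.993 ± 0.221 for 3 nM and 1.46 ± 0.482 for 10 nM. The highest ratios were 2.07 in 10 nM replicate 6, 1.84 in replicate 5 and 1.75 in replicate 1, the same libraries as for the mitochondrial share. The next was 1.33, in 3 nM replicate 1, which was not among the libraries apart. The remaining 10 nM libraries, at 0.93 to 1.11, lay within the DMSO range of 0.47 to 1.11. In 3 nM replicates 4 and 6 both origins were high together, and their ratios of 0.98 and 1.19 lay in or just above the DMSO range. A sum over members carries no test here, so these ratios are a description.

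**Figure D1:**
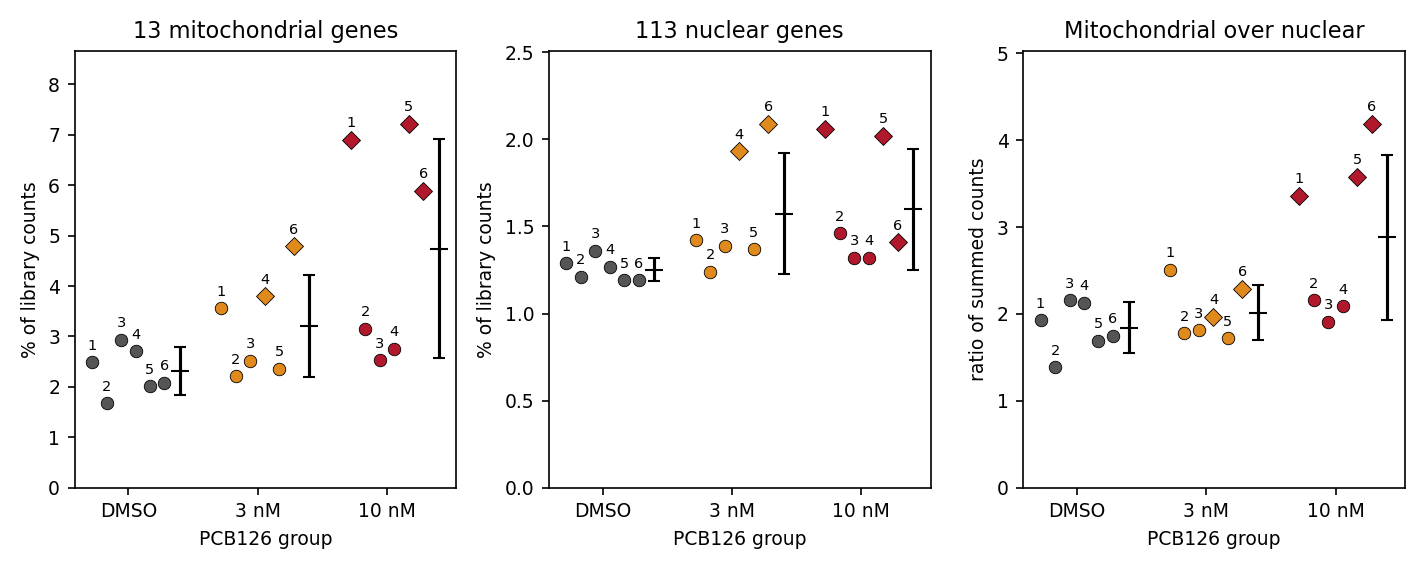
Share of library counts from 13 mitochondrial genes (left, %), from 113 nuclear genes (middle, %) and their ratio (right), by group. Points are libraries with replicate numbers, diamonds are the 5 libraries set apart on principal component 1, and the dash with bar is the mean ± SD of 6. In 10 nM replicate 6 the mitochondrial share is 5.89%. Its nuclear share, 1.41%, is far below the highest values but just above the DMSO maximum of 1.36%.

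All 13 mitochondrial genes had positive log2 fold changes at 10 nM against DMSO, and 11 rose in the test, read at an adjusted p under 0.05 over all genes. In that comparison 7.4% of all genes tested were called higher and 3.44% lower, 10.8% in either direction. The median log2 fold change of the 13 genes was 1.26, from 0.70 to 1.76, against 0.06 over all genes. Positive values were found for 13057 of all 24053 genes tested. The smallest adjusted p belonged to a pair of complex I genes. MT-ND2 (ENSDARG00000063899), a core membrane subunit, ran from 581 to 951 CPM in DMSO (median 749), from 735 to 1399 CPM at 3 nM (median 1134) and from 870 to 2734 CPM at 10 nM (median 1774). Its log2 fold change at 10 nM was 1.20 ± 0.27 (SE, edgeR adjusted p = 0.0152). MT-ND1 (ENSDARG00000063895), which helps form the quinone site, ran from 783 to 1354 CPM in DMSO (median 988), from 1093 to 2596 CPM at 3 nM (median 1496) and from 1219 to 4061 CPM at 10 nM (median 2512). It rose by 1.32 ± 0.31 on the log2 scale (SE, edgeR adjusted p = 0.0159). For both genes the 10 nM and DMSO ranges overlap, because 10 nM replicates 3 and 4 lay at or near DMSO levels.

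The other complex I genes of the mitochondrial genome were mostly high in the same libraries, with mt-nd4l as an exception. MT-ND3 had the greatest fitted change of the 13, 1.76 ± 0.51 (adjusted p = 0.0362), and its 10 nM values spread from 232 to 2075 CPM. MT-ND4 rose by 1.26 ± 0.33, MT-ND5 by 0.94 ± 0.27 and MT-ND6 by 1.26 ± 0.35 on the log2 scale. MT-ND6 lies on the strand opposite to most of the others, and no source used here gives the strand setting of the counting, which makes its value uncertain. One of the genes that missed the threshold was mt-nd4l, with 0.70 ± 0.24 (adjusted p = 0.0649). It overlaps MT-ND4 in vertebrate mitochondrial genomes, so reads of this pair are hard to divide. Its 10 nM values were 156 CPM in replicate 6 and 48.0 to 69.0 CPM in the others, and replicates 1 and 5 lay below replicates 2 and 4.

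In complexes III, IV and V the changes were of like size. MT-CYB, the cytochrome b of complex III, rose by 1.27 ± 0.36 (adjusted p = 0.0349). MT-CO2, the complex IV subunit that receives electrons from cytochrome c, ran from 2433 to 4217 CPM in DMSO, from 2952 to 11610 CPM at 3 nM and from 3422 to 23870 CPM at 10 nM. It rose by 1.68 ± 0.47 at 10 nM (adjusted p = 0.0323). MT-CO3 rose by 1.09 ± 0.30, while MT-CO1, the catalytic subunit of complex IV, had 0.96 ± 0.32 and missed the threshold (adjusted p = 0.0564). MT-ATP6, which forms part of the proton channel, rose by 1.24 ± 0.34 and its small partner mt-atp8 by 1.41 ± 0.36. These last genes overlap in vertebrate mitochondrial genomes and their reads are likewise hard to divide.

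No mitochondrial gene had 10 nM values wholly above DMSO, whereas 2.93% of all genes did. Without the 5 libraries apart, edgeR called 0 of the 13 genes, in a fit where 1.02% of all genes were called higher. A count of 0 in 13 is near that share. The median of the 13 genes was then 0.28, from 0.04 to 0.46. An unadjusted p under 0.05 was found for 3, a measure not counted over all genes. Leaving out single libraries left 2 to 13 calls. DMSO replicate 2, 10 nM replicate 5 and 10 nM replicate 6 each left 2. DMSO replicate 6 and 10 nM replicate 1 each left 3, DMSO replicate 5 left 4, and DMSO replicates 1 and 4 each left 5. Without these named libraries in turn, 2.47% to 4.49% of all genes were called higher, against 7.4% with all libraries.

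Markers of other cell types moved in some of these libraries. Of 17 leukocyte markers tested, 6 rose at 10 nM, and their summed level was 309.8 to 561.9 CPM in DMSO, 282.5 to 425.2 CPM at 3 nM and 314.9 to 1609 CPM at 10 nM, with none at 0 in any group. The highest leukocyte sums were 1560, 1609 and 632.5 CPM in 10 nM replicates 1, 5 and 6, and 3 nM replicates 4 and 6, which also had high mitochondrial shares, had 334.3 and 320.7 CPM. The 14 intestine markers summed to 26.95 to 58.97 CPM in DMSO, 27.03 to 196.2 CPM at 3 nM and 28.32 to 176.7 CPM at 10 nM, and 2 of 13 tested rose at 10 nM. Their highest sum, 196.2 CPM, was in 3 nM replicate 1, which was not among the libraries apart but had a mitochondrial share of 3.56%. The 12 liver markers summed to 25.69 to 137.4, 41.75 to 332.8 and 40.01 to 545.0 CPM, and 0 of 12 were called. The 332.8 CPM was in 3 nM replicate 5, whose mitochondrial share of 2.36% lay within the DMSO range. The 545.0 CPM was in 10 nM replicate 6. This last library also had the lowest germ cell sum, 7055 CPM, and the highest Sertoli cell sum, 4394 CPM. Of 13 germ cell markers 0 rose and 2 fell at 10 nM, of 8 Leydig cell markers 0 rose and 2 fell, and of 10 Sertoli cell markers 1 rose and 1 fell. The 11 spermatid and sperm markers summed to 1170 to 2451 CPM in DMSO, 1571 to 2564 CPM at 3 nM and 1362 to 2559 CPM at 10 nM. Their highest exposed sums were 2564 and 2112 CPM in 3 nM replicates 4 and 6 and 2559 and 2424 CPM in 10 nM replicates 1 and 5. At 10 nM 0 of these 11 and 0 of 8 erythrocyte markers were called. Of all genes tested, 7.4% were called higher and 3.44% lower. At 10 nM 2 leukocyte, 0 intestine and 0 liver markers were called higher when the 5 libraries apart were omitted. The share of all genes called higher was then 1.02%. In that fit 2 germ cell, 1 Leydig cell and 0 Sertoli cell markers were called lower, and 217 of 24575 genes in all. The part of these cell types in the mitochondrial result was not tested, and in bulk RNA fewer cells of a type and less RNA per cell cannot be told apart.

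The 13 mitochondrial genes did not keep fixed proportions to each other. MT-CO1 made up 31.8% ± 0.751 of the mitochondrial counts of the DMSO libraries (mean ± SD, n = 6), against 28.0% ± 2.19 for 3 nM and 27.4% ± 1.94 for 10 nM. The share of MT-CO2 was 14.0% to 15.7% in DMSO. It was 22.9% and 22.4% in 3 nM replicates 4 and 6 and 22.3% and 27.5% in 10 nM replicates 1 and 5, and 14.6% to 15.8% in the other exposed libraries. MT-ND3 showed the same division, with 1.98%, 1.96%, 1.74% and 2.39% in those 4 libraries and 1.01% to 1.3% in all others.

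Other mitochondrial genes lost share in the same 4 libraries. The share of mt-nd4l was 0.0723%, 0.0749%, 0.0699% and 0.069% there, against 0.161% to 0.253% in the other 14. MT-ND5 held 1.36%, 1.61%, 1.23% and 1.55% there and at least 1.91% elsewhere. Thus mt-nd4l, at 30.5 to 59.8 CPM in these 4 libraries, stayed close to its DMSO range of 34.5 to 56.4 CPM while MT-CO2 reached 9654 to 23870 CPM. In 10 nM replicate 6 the shares of MT-CO2, MT-ND3, mt-nd4l and MT-ND5 were 15.7%, 1.16%, 0.23% and 2.03%, all near the DMSO values. Its share of mt-atp8 was 0.15%, against 0.0568% to 0.0989% elsewhere. Its shares of MT-ND6 (1.43%), MT-CO3 (18.1%) and MT-ND4 (4.46%) were also the highest of the 18 libraries. Its share of MT-CO1, 27.4%, lay below the DMSO range of 30.4% to 32.7%, as in every other exposed library but 3 nM replicate 2 (31.2%). The libraries apart were thus of unlike make-up in their mitochondrial RNA, though alike in a low MT-CO1 share.

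**Figure D2:**
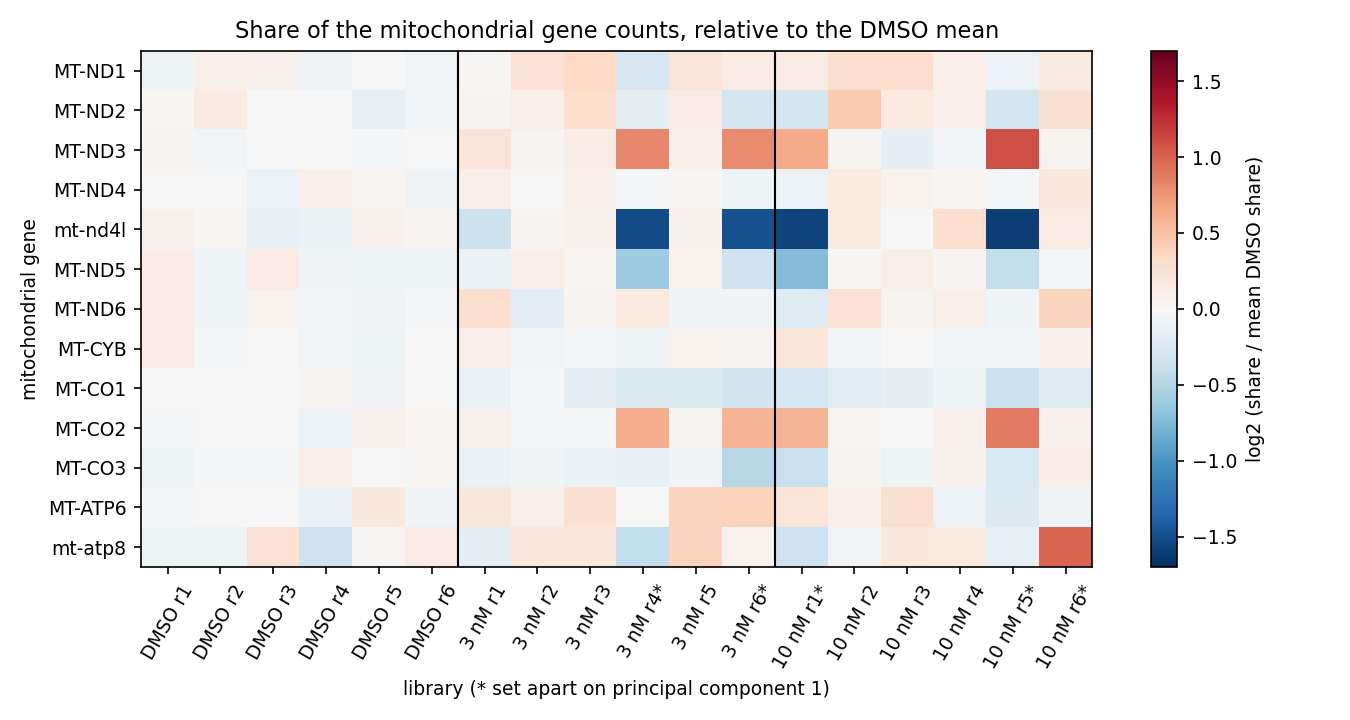
Share of each mitochondrial gene in the counts of all 13, as log2 of its ratio to the DMSO mean share (colour), for 18 libraries (columns, vertical lines divide the groups). In replicates 4 and 6 at 3 nM, and in replicates 1 and 5 at 10 nM, MT-CO2 and MT-ND3 are above and mt-nd4l and MT-ND5 below their DMSO shares, and 10 nM replicate 6 does not show this.

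Nuclear members gave a weaker picture at 10 nM. Of 112 tested, 12 rose and 0 fell, which is 10.7% against the 7.4% called higher among all genes. Without adjustment, 67 had a p under 0.05 in the higher direction and 1 in the lower, a measure not counted over all genes. DESeq2 called 28 higher and 0 lower, and it called 11.3% of all genes higher. The median log2 fold change was 0.50, from -0.59 to 1.72, and 101 of 112 were positive. Over all genes the median was 0.06, and 13057 of 24053 were positive. The count of calls ran from 2 to 39 when single libraries were left out. It was 33 and 39 without 10 nM replicates 3 and 4, where 10.3% and 10.6% of all genes were called higher. It was 2 to 5 when any of DMSO replicates 1, 2, 4, 5 and 6 was absent, or any of the 10 nM replicates 1, 5 and 6. The share of all genes called higher was then 2.47% to 4.49%, so calls moved over all genes too. The count of nuclear calls was 2 (1.79%, against 1.02% of all genes) without the 5 libraries apart.

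By complex, 3 of 48 complex I members rose (median 0.40), 0 of 9 in complex II (0.46), 1 of 8 in complex III (0.36), 5 of 27 in complex IV (0.62) and 3 of 20 in complex V (0.54). Subunits and assembly or regulatory factors had medians of 0.54 and 0.42, with 11 of 90 and 1 of 22 called. The share to set beside all these counts is the 7.4% of all genes called higher. Complex was read from the symbol. The complex I calls thus include ndufa4b and NDUFA4L2, of a family whose mammalian member NDUFA4 is known as a complex IV subunit.

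**Figure D3:**
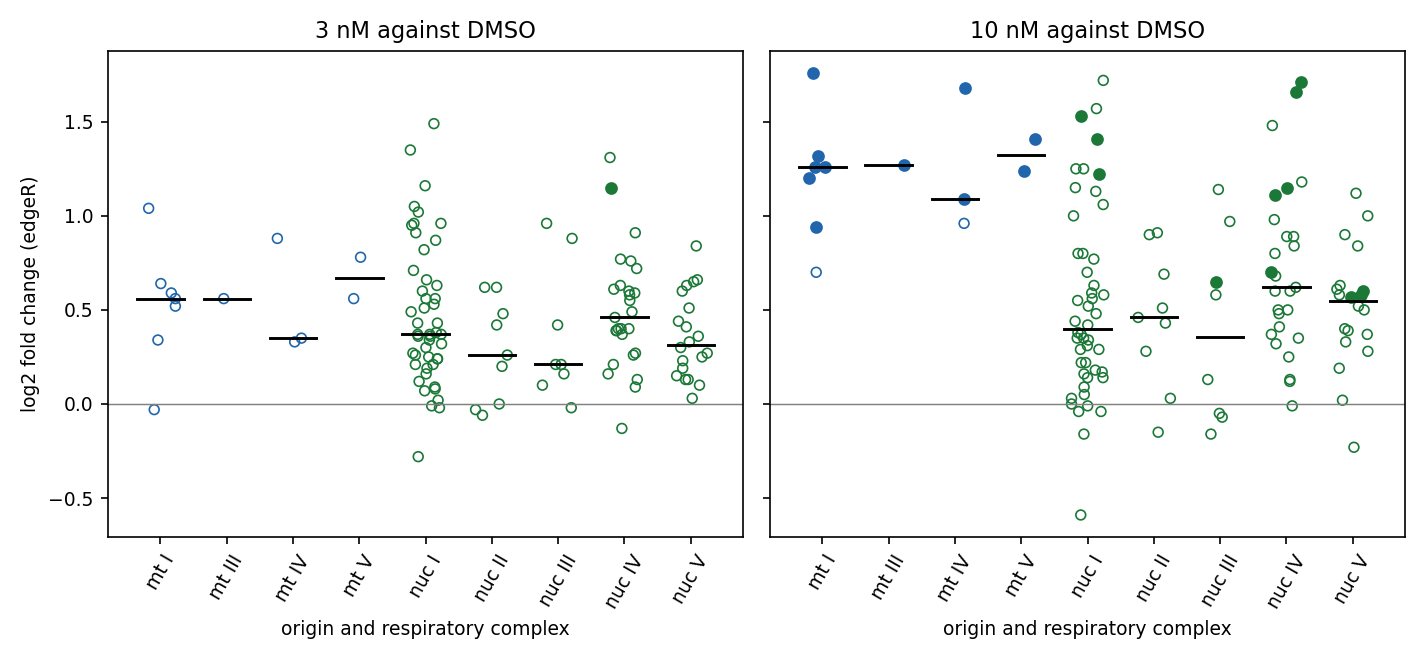
Log2 fold change of each tested member against DMSO at 3 nM (left) and 10 nM (right), by genome of origin (mt blue, nuc green) and respiratory complex. Filled points passed an adjusted p of 0.05 in edgeR and bars are medians. At 10 nM every mitochondrial gene lies above 0, and nuclear members run from -0.59 to 1.72.

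Inside the nuclear complexes the fitted changes differed with the role of the subunit. This grouping by textbook role was chosen after the values were seen and is given without a test. The 7 nuclear core subunits of complex I, which carry the flavin and the iron-sulfur clusters, had a median of 0.03, from -0.04 to 0.38, and 0 were called. The 34 other complex I subunits tested by symbol, the NDUFA4 family included and most of them small proteins, had a median of 0.57. Calls were made for 3 of them, where 7.4% of all genes were called higher.

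A like division was seen in complexes II, III and V. The catalytic subunits SDHA and SDHB of complex II had 0.03 and -0.15, whereas its membrane anchors (SDHC and 2 genes named SDHD) had 0.46 to 0.90. In complex III the core and Rieske iron-sulfur subunits (UQCRC1, UQCRC2, uqcrc2a and UQCRFS1) had -0.16 to 0.13. Its small subunits UQCR10, UQCRB, UQCRH and UQCRQ had 0.58 to 1.14. In complex V the alpha and beta subunits of the catalytic head, ATP5F1A and ATP5F1B, had 0.02 and -0.23, and the other 16 nuclear subunits 0.19 to 1.12. Of all these, UQCRH, ATP5F1C and ATP5PF were called at 10 nM.

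Within the libraries apart the division was seen in most cases. Relative to the DMSO mean, the summed CPM of the small complex III subunits was 2.67 and 3.14 in 3 nM replicates 4 and 6, 3.71 and 3.62 in 10 nM replicates 1 and 5, and 1.53 in 10 nM replicate 6. The complex III core and Rieske subunits stood at 1.15, 1.2, 1.01, 1.06 and 0.989 in the same order. For complex I the supernumerary subunits stood at 2.10, 2.19, 2.43, 2.42 and 1.33, and the core subunits at 1.32, 1.31, 1.18, 1.19 and 1.08. The alpha and beta subunits of complex V stood at 1.06, 1.07, 0.797, 0.725 and 1, and its other nuclear subunits at 1.9, 1.99, 2.23, 2.36 and 1.52. In complex II the membrane anchors stood at 1.89, 2.51, 3.41, 2.99 and 1.14 and the catalytic subunits at 0.889, 0.965, 0.815, 0.824 and 1.16, so 10 nM replicate 6 did not show the division there. Without the 5 libraries apart, the medians at 10 nM were 0.04 for the complex I core, 0.05 for its supernumerary subunits and -0.09 for the small complex III subunits.

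A pair of complex I subunits, chosen after their values were seen, shows the contrast near its widest. NDUFS1 (ENSDARG00000028546), the largest core subunit, ran from 186 to 213 CPM in DMSO, from 187 to 219 CPM at 3 nM and from 180 to 214 CPM at 10 nM, a log2 fold change of -0.01 ± 0.08 (SE, edgeR adjusted p = 0.939). The small subunit ndufa5 (ENSDARG00000039346) ran from 44.0 to 63.8 CPM in DMSO, from 46.5 to 255 CPM at 3 nM and from 49.9 to 356 CPM at 10 nM. Its fitted change of 1.57 ± 0.51 did not pass the test (adjusted p = 0.054). It was highest in 10 nM replicates 5 and 1 (356 and 332 CPM) and 3 nM replicates 6 and 4 (255 and 194 CPM), and 46.5 to 79.9 CPM in the other exposed libraries. Its change was the greatest of the supernumerary subunits, where NDUFA9 and ndufb3 had only 0.05 and 0.09. Among core subunits NDUFS8 and NDUFS3 had 0.38 and 0.31. The core subunit NDUFS7 stood at 337, 291, 380 and 393 CPM in the same libraries, in that order, against 177 to 200 CPM in DMSO. The division by role was thus not clean. It was also not particular to subunits. Assembly factors of complex I ran from -0.16 (NDUFAF7) to 1.72 (NDUFAF8) and those of complex IV from 0.12 (COX15) to 1.48 (COX19), with 0 called. NDUFAF8 stood at 38.1, 35.0, 30.4 and 21.0 CPM in the same libraries, in that order, against 3.08 to 6.34 CPM in DMSO.

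The nuclear gene with the smallest adjusted p, cox6b1 (ENSDARG00000045230), encodes a complex IV subunit on the side of the enzyme where cytochrome c binds. It ran from 33.1 to 50.5 CPM in DMSO (median 41.8), from 65.7 to 130 CPM at 3 nM (median 93.7) and from 87.7 to 196 CPM at 10 nM (median 137). All 12 exposed libraries lay above all 6 DMSO libraries. At 10 nM, 4 of 112 nuclear members tested lay wholly above DMSO, where 2.93% of all genes did. At 3 nM, 2 of 112 did, where 1.03% of all genes did. Its log2 fold change was 1.71 ± 0.22 at 10 nM (SE, edgeR adjusted p = 0.000328) and 1.15 ± 0.22 at 3 nM (adjusted p = 0.0303). Between the doses it was 0.56 ± 0.21 (adjusted p = 0.278), and the ranges overlap. Without the 5 libraries apart the changes were 1.22 ± 0.17 (adjusted p = 0.00249) and 0.91 ± 0.15 (adjusted p = 0.0233).

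The related gene cox6b2 (ENSDARG00000037860), named after the testis form of this subunit in mammals, gave other values. It ran from 272 to 403 CPM in DMSO, from 280 to 1009 CPM at 3 nM and from 266 to 1258 CPM at 10 nM. Its change at 10 nM was 0.80 ± 0.39 (adjusted p = 0.156) and became -0.22 without the 5 libraries apart. The difference between the changes of these genes was not tested.

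Other isoform genes of complex IV rose at 10 nM too. The gene cox4i1l (ENSDARG00000012388), named as a relative of the core regulatory subunit COX4I1, ran from 17.3 to 44.4 CPM in DMSO (median 25.3), from 18.8 to 75.7 CPM at 3 nM (median 39.5) and from 45.3 to 147 CPM at 10 nM (median 75.0). All 10 nM libraries lay above DMSO, as held for 2.93% of all genes, and the gap was narrow in replicate 3. The change was 1.66 ± 0.35 (adjusted p = 0.0104), and 1.07 ± 0.40 (adjusted p = 0.165) without the 5 libraries apart. At 3 nM it was 0.63 ± 0.34 (adjusted p = 0.395).

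COX4I1 itself was not called at 10 nM, with 0.50 ± 0.17 (adjusted p = 0.0641). COX4I2, known in mammals as the form used at low oxygen, rose by 1.15 ± 0.35 (adjusted p = 0.0447) from 4.44 to 17.2 CPM in DMSO to 13.9 to 44.1 CPM, and its ranges overlap. The muscle and heart form of another subunit in mammals, cox7a1, rose by 1.11 ± 0.29 (adjusted p = 0.0273) from 9.14 to 15.4 CPM to 14.2 to 48.5 CPM. Its counterpart COX7A2 had 0.89 (adjusted p = 0.0969). The subunit gene cox5aa rose by 0.70 ± 0.21 (adjusted p = 0.0405). These 3 calls were lost without the 5 libraries apart, with 0.50 ± 0.31 for COX4I2 (adjusted p = 0.413), 0.38 ± 0.23 for cox7a1 (adjusted p = 0.393) and 0.28 ± 0.13 for cox5aa (adjusted p = 0.246). Reads were 50 bases long, so counts of close paralogs such as cox5aa and COX5A, or cox8a and cox8b, are uncertain. The pair cox8a and cox8b had 0.37 and 0.68, and cox6a1 and COX6A1 had 0.25 and 0.60, none of them called.

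In complex I the called nuclear genes were ndufa4b, NDUFA4L2 and NDUFAB1. The gene ndufa4b (ENSDARG00000056108) belongs to a family named for complex I whose mammalian member NDUFA4 is known as a complex IV subunit. It ran from 8.44 to 17.1 CPM in DMSO (median 12.8), from 19.4 to 69.8 CPM at 3 nM (median 30.7) and from 20.01 to 58.5 CPM at 10 nM (median 25.1). As for cox6b1, all 12 exposed libraries lay above all 6 DMSO libraries. Taken by dose, 2.93% of all genes lay above DMSO at 10 nM and 1.03% at 3 nM. The change was 1.41 ± 0.34 at 10 nM (adjusted p = 0.0199) and 1.49 ± 0.34 at 3 nM, where it missed the threshold (adjusted p = 0.108).

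In the fit without the 5 libraries apart, ndufa4b had 0.90 ± 0.27 at 10 nM (adjusted p = 0.0936) and 1.07 ± 0.25 at 3 nM (adjusted p = 0.13). The paralog NDUFA4, at 240 to 354 CPM in DMSO, had 0.42 ± 0.23 at 10 nM (adjusted p = 0.216). NDUFA4L2, the hypoxia-linked member of the family in mammals, rose by 1.53 ± 0.47 (adjusted p = 0.0445), but its mean level went only from 0.153 to 0.464 CPM, close to the level of 3 counts. NDUFAB1, the mitochondrial acyl carrier protein, rose by 1.22 ± 0.39 (adjusted p = 0.0492). It reached 537 and 531 CPM in 10 nM replicates 1 and 5, against 108 to 143 CPM in DMSO and 134 to 161 CPM in the other 10 nM libraries. NDUFAB1 had 0.29 ± 0.11 (adjusted p = 0.151) and NDUFA4L2 0.85 ± 0.52 (adjusted p = 0.397) without the 5 libraries apart. Their calls were kept in only 7 of 26 and 9 of 25 alternative settings.

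**Figure D4:**
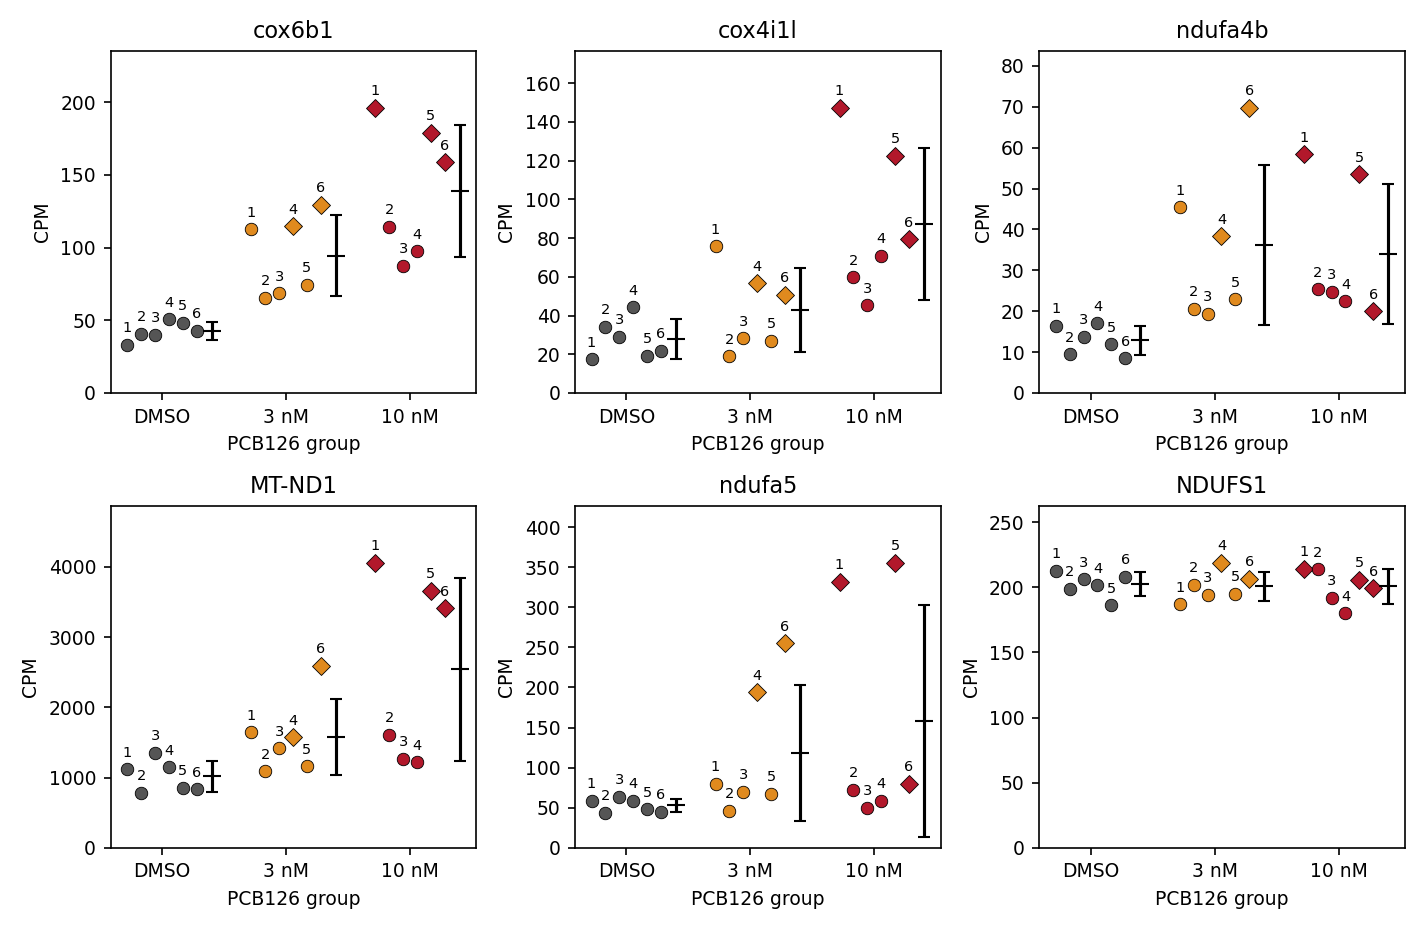
CPM of 6 members in each library by group, with replicate numbers. Diamonds are the 5 libraries set apart on principal component 1, and the dash with bar is the mean ± SD of 6. For cox6b1 and ndufa4b all exposed libraries lie above DMSO, and NDUFS1 stays between 180 and 219 CPM. MT-ND1 and ndufa5 reach their highest values in libraries apart, but not in all 5. MT-ND1 in 3 nM replicate 4 (1574 CPM) and ndufa5 in 10 nM replicate 6 (79.9 CPM) are near 3 nM replicate 1 (1647 and 79.8 CPM).

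Single genes rose in complex III and 3 in complex V. UQCRH, the hinge subunit that helps cytochrome c dock, rose by 0.65 ± 0.20 (adjusted p = 0.0426), from 49.9 to 83.5 CPM in DMSO to 62.8 to 164 CPM. ATP5F1C, the rotating shaft of ATP synthase, rose by 0.57 ± 0.16 (adjusted p = 0.0355), and ATP5PF, a part of its stalk, by 0.58 ± 0.17 (adjusted p = 0.0361). The inhibitor of the enzyme's reverse reaction, atp5if1a, rose by 0.60 ± 0.18 (adjusted p = 0.0387). It ran from 45.5 to 58.9 CPM in DMSO and from 52.4 to 132 CPM at 10 nM, and was highest in 10 nM replicate 6. With the 5 libraries apart omitted, atp5if1a had 0.49 ± 0.11 and was called (adjusted p = 0.041), but over all alternative settings its call was kept in 14 of 26, with adjusted p up to 0.0994. The others were not called without these libraries, with 0.18 ± 0.17 for UQCRH (adjusted p = 0.605), 0.19 ± 0.10 for ATP5F1C (adjusted p = 0.333) and 0.20 ± 0.13 for ATP5PF (adjusted p = 0.436).

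At 3 nM, a comparison that uses the same DMSO libraries, 0.129% of all genes were called higher, 0.079% lower and 0.208% in all. None of the 13 mitochondrial genes was called by edgeR, 2 had an unadjusted p under 0.05, and DESeq2 called 0. Their median log2 fold change was 0.56, from -0.03 to 1.04. Of 112 nuclear members 1 was called, cox6b1, with a median of 0.38, from -0.28 to 1.49, against 0.02 over all genes. For 35 of them the unadjusted p was under 0.05. Such p-values were not counted over all genes, so neither this count nor the mitochondrial one has a share beside it. DESeq2 called 2, cox6b1 and ndufa4b. Of all genes, DESeq2 called 0.74% higher at this dose. The ranges of cox6b1 and ndufa4b lay above DMSO, which held for 1.03% of all genes. The call of cox6b1 was lost, leaving 0, when any of DMSO replicates 1, 2, 3 and 6 was absent, or any of the 3 nM replicates 1, 4 and 6. Without the 5 libraries apart cox6b1 was the 1 call, and the medians were 0.25 and 0.11.

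Between 10 nM and 3 nM, 0.121% of all genes were called higher and 0.00831% lower, 0.129% in all. None of the 125 members was called by edgeR. Unadjusted p-values under 0.05 were found for 7 mitochondrial and 7 nuclear genes in the higher direction and for 2 nuclear genes in the lower. They were not counted over all genes. DESeq2 called 1, uqcrc2a, which was lower at 10 nM with -0.37 in edgeR (adjusted p = 0.146). Of all genes, DESeq2 called 2.91% in either direction. The median was 0.70 over the mitochondrial genes and 0.09 over the nuclear genes, against 0.01 over all genes, and 0.03 and -0.05 without the 5 libraries apart.

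Library by library, the share of members above the highest DMSO library was uneven. All 13 mitochondrial genes were above it in 10 nM replicates 1, 5 and 6, but 0 in 10 nM replicate 3 and 3 nM replicate 2 and 1 in 10 nM replicate 4 and 3 nM replicate 5. Outside the libraries apart, 12 were above it in 3 nM replicate 1 and 10 in 10 nM replicate 2. Of the nuclear members, 64.3% and 50.9% were above the DMSO range in these last libraries, where 18% and 20.2% of all genes were. In the 5 libraries apart the nuclear shares were 74.1% to 86.6%, against 30.9% to 35.7% of all genes. In 10 nM replicates 3 and 4 they were 11.6% and 17.0%, against 19.1% and 20.2% of all genes.

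**Figure D5:**
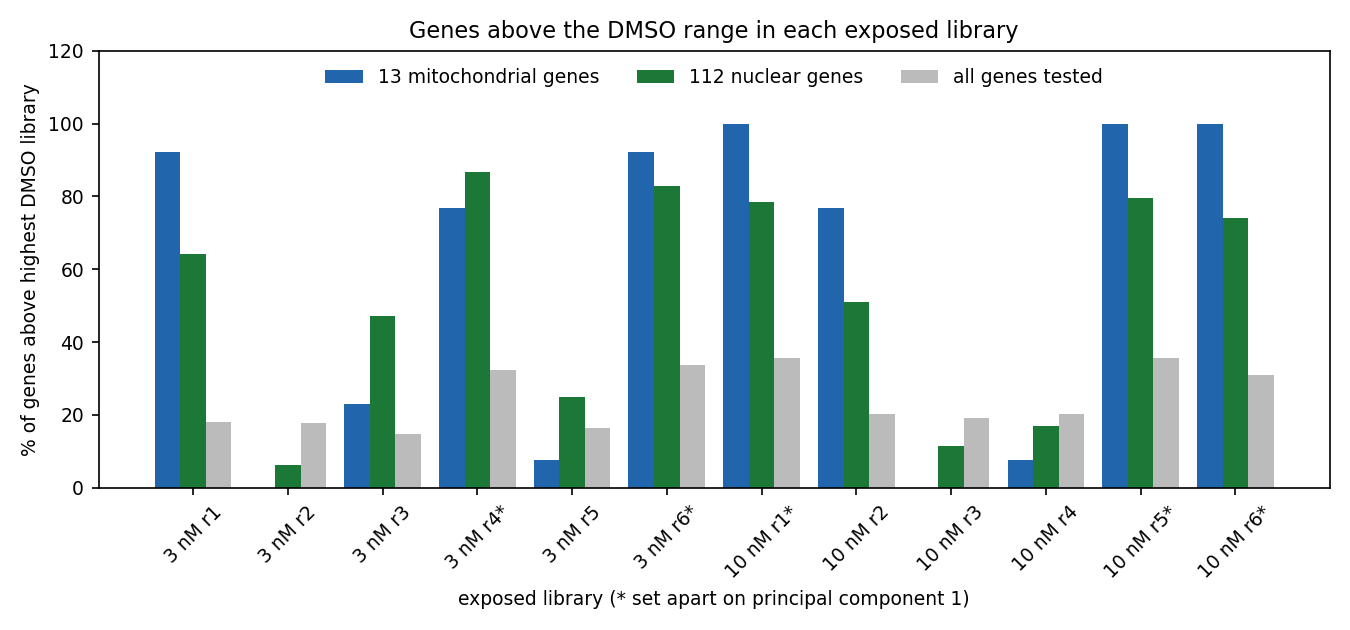
Percentage of genes whose CPM is above the highest DMSO library, in each of 12 exposed libraries (asterisks mark the 5 set apart), for 13 mitochondrial genes, 112 nuclear genes and all genes tested. Both origins exceed all genes in replicates 1, 3, 4 and 6 of the 3 nM group and in replicates 1, 2, 5 and 6 of the 10 nM group, and lie below them in 3 nM replicate 2 and 10 nM replicates 3 and 4.

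Genes around the respiratory chain gave mixed values at 10 nM. For each list that follows, the shares to set beside its calls are 7.4% of all genes tested called higher and 3.44% lower. Of 73 mitochondrial ribosomal protein genes, which translate the mitochondrial messages, 18 rose and 0 fell (median 0.49), for example mrps6 (0.83 ± 0.16, adjusted p = 0.00623) and MRPL40 (0.59 ± 0.13, adjusted p = 0.0133). Their summed level was 2734 to 3341 CPM in DMSO and 5174, 5586, 6442 and 5618 CPM in replicates 4 and 6 at 3 nM and then replicates 1 and 5 at 10 nM. In 10 nM replicate 6 it was 3722 CPM. Of 36 other carriers and assembly factors, 5 rose and 0 fell (median 0.26). These were coa6, a complex IV copper factor (1.26 ± 0.38), TMEM126A and lyrm7, assembly factors of complexes I and III (1 ± 0.29 and 0.84 ± 0.25), TMEM70, an ATP synthase factor (0.60 ± 0.19), and ETFDH, which feeds electrons from fat oxidation to ubiquinone (0.29 ± 0.09).

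The genes that copy and transcribe mitochondrial DNA gave 1 call in each direction, where 7.4% of all genes were called higher and 3.44% lower. Of 33, 1 rose (tfb2m, a transcription factor of the organelle, 0.34 ± 0.10, adjusted p = 0.039) and 1 fell (LONP1, a matrix protease, -0.39 ± 0.10, adjusted p = 0.025), with a median of -0.07. Of 17 regulators of mitochondrial biogenesis 0 were called, with a median of -0.19 and 15 negative values. Negative values were found for 10996 of all 24053 genes tested. Of 17 citric acid cycle and pyruvate dehydrogenase genes 1 rose, IDH3A (0.47 ± 0.15, adjusted p = 0.0486), with a median of -0.05.

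Of 28 glycolysis and lactate dehydrogenase genes 6 rose and 1 fell (median 0.24). Those that rose included ENO1, the enolase of glycolysis (0.62 ± 0.11, adjusted p = 0.00487), and LDHA, which turns pyruvate into lactate (0.85 ± 0.21, adjusted p = 0.0193), and the one that fell was PGAM2, the muscle phosphoglycerate mutase of mammals (-2.80 ± 0.79, adjusted p = 0.0336). PGAM2 stood at 8.16 CPM in DMSO replicate 1 and at 0.628 to 1.13 CPM in the other DMSO libraries, and without that library its change was -1.51 (adjusted p = 0.128). Skeletal muscle markers summed to 698.8 CPM in DMSO replicate 1 and to 157.5 to 453.6 CPM in the other DMSO libraries, and their part in the PGAM2 value was not tested. At 3 nM none of these listed genes was called by edgeR.

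Most calls in these lists at 10 nM were lost without the 5 libraries apart, a fit in which 1.02% of all genes were called higher. Of the mitochondrial ribosomal protein genes 1 was then called (mrps6, 0.67, adjusted p = 0.0351; median of the list 0.16), and of the other carriers and assembly factors 0 (median 0.09). No gene for mitochondrial DNA upkeep, biogenesis or the citric acid cycle was called (medians -0.01, -0.11 and -0.13). Of the glycolysis genes 2 were called higher and 0 lower (median 0.18), with 0.40 for ENO1 (adjusted p = 0.043) and 0.27 for LDHA (adjusted p = 0.368).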

How the data were processed

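The authors deposited raw whole-number counts per gene. GRCz10 and the tools FastQC, STAR, HTSeq and edgeR are named, with no version, per the submitters' processing notes. Libraries were stranded and single-end with reads of 50 bases, per the labels. The tables held 0 rows that name no gene. Symbols came from a name table, which gives some zebrafish genes the capital symbol of their human counterpart. Counts were tested with edgeR 4.0.16 (limma 3.58.1, R 4.3.3): genes kept by filterByExpr, TMM scaling, robust quasi-likelihood F-tests, two-sided, in 1 fit of 18 libraries with 15 residual degrees of freedom, and Benjamini-Hochberg adjustment over 24053 genes, called under 0.05. SE was derived from the change and its F value. CPM uses TMM-scaled totals. The test was run on simulated counts drawn independently around the DMSO means. No libraries shifted together in them, so that run does not cover a pattern such as the 5 libraries apart. Replicates of a group differed beyond sampling noise (chi-square over degrees of freedom of at least 17.3), and each counted as 1 sample. Alternatives were other scalings, DESeq2 1.42.0, no filter, a replicate block, 2-group fits and left-out libraries.

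Named genes were all 13 mitochondrial genes, up to 4 called nuclear genes per complex, direction and comparison, the most abundant member per complex, and listed isoform pairs. Others named beside them were chosen after their values were seen. The members and lists were chosen with earlier results of these data known. The authors' deposited tables of methylated regions were not used here, since they carry no gene names.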

Additional observations from a re-analysis of the deposited data

Results flagged for a closer look

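In 6 of 123 groups of 6 libraries examined, the highest or lowest library stood apart from the rest by Dixon's criterion for a gap against the whole range, and chance gives about 1 in 20, or 6.2 groups. For MT-ND1 at 3 nM, replicate 6 stood at 2600 CPM with the others at 1090 to 1650 CPM. For mt-nd4l at 10 nM, replicate 6 stood at 156 CPM with the others at 48 to 69 CPM. For mt-atp8 at 3 nM, replicate 6 stood at 41 CPM with the others at 17.3 to 24.3 CPM. For ATP5F1C at 3 nM, replicate 6 stood at 331 CPM with the others at 214 to 257 CPM. Low values were found in DMSO, where cox7a1 in replicate 2 stood at 9.14 CPM with the others at 13.2 to 15.4 CPM and ATP5F1A in replicate 5 at 582 CPM with the others at 742 to 796 CPM.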

How the results depend on the processing

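At 10 nM against DMSO, 11 mitochondrial genes were called. This became 13 with DESeq2, 1 with a replicate block and 0 without the 5 libraries apart, and 2 to 13 over single libraries left out. The 12 nuclear calls became 28 with DESeq2, 6 with no filter on low counts, 7 with library totals alone and 7 with only the 2 groups compared. They became 3 with a replicate block, 2 without the 5 libraries, and 2 to 39 over single libraries left out. The share of all genes called higher, 7.4% in the main fit, moved too. It was 11.3% with DESeq2, 4.22% with no filter, 3.89% with library totals alone and 5.14% with only the 2 groups. With a replicate block it was 2.08%, and without the 5 libraries 1.02%. Deviations of same-numbered libraries from their group means correlated from -0.49 to 0.34, which showed no steady pairing by replicate number but cannot exclude it. Over all genes the replicate block left 684 calls of 2609. At 3 nM the 1 nuclear call became 2 with DESeq2, 0 with a replicate block and 0 to 1 over single libraries left out. Between doses DESeq2 called 1 nuclear gene lower where edgeR called 0. Without the 5 libraries the mitochondrial and nuclear medians were 0.28 and 0.07 at 10 nM, 0.25 and 0.11 at 3 nM, and 0.03 and -0.05 between doses; the last, 0.09 with all libraries, was 0.03 with library totals alone and -0.03 to 0.22 over single libraries left out. Library totals alone moved the median of all genes at 10 nM from 0.06 to -0.04. In the fit that omits the 5 libraries, 27 of 112 nuclear members turned from positive to negative and 4 the other way at 10 nM, 21 and 2 at 3 nM, and 54 and 7 between doses, with 0, 0 and 5 mitochondrial genes turning negative and 1 turning positive at 3 nM. Among the genes named by rule these were SDHC (-0.18), cox6b2 (-0.22), COX7A2 (-0.10) and atp5if1b (-0.11) at 10 nM. At 3 nM they were mt-nd4l (0.13), NDUFA4 (-0.02), COX4I2 (-0.10), cox6b2 (-0.01) and atp5if1b (-0.01), and between doses MT-ND3 (-0.17), MT-CYB (-0.07), MT-CO1 (-0.02), MT-ATP6 (-0.14), mt-atp8 (-0.04), UQCRH (-0.01), NDUFA4L2 (-0.48), NDUFAB1 (-0.14), SDHC (-0.23), cox6b2 (-0.21), COX7A2 (-0.18), cox8b (-0.02), atp5if1b (-0.10) and ATP5PF (-0.03). ATP5F1A at 10 nM was -0.05 with library totals alone and -0.04 to 0.08 over single libraries left out; at 3 nM mt-nd4l ran from -0.11 to 0.06 and COX6A1 from -0.24 to 0.08. The call of cox6b1 at 10 nM was kept in 26 of 26 alternatives, cox4i1l and MT-ND2 in 25, MT-ND1 in 24, ndufa4b in 22, mt-atp8 in 21, cox7a1 in 20 and MT-ND4 in 19. It was kept in 15 to 17 for MT-ND3, MT-ND5, MT-ND6, MT-CYB, MT-CO2, MT-CO3, MT-ATP6, cox5aa, ATP5F1C and ATP5PF, in 14 for atp5if1a, 11 for UQCRH, 10 for COX4I2, 7 for NDUFAB1, and in 9 of 25 for NDUFA4L2. Causes were not tested. Shares without mitochondrial rRNA and tRNA, and motifs in promoters, were not run. Depth limits NDUFA4L2, near 3 counts.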

Other observations

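A pair of members chosen after their values were seen had patterns unlike most others. The gene atp5mea, a small subunit of complex V, stood at 60.3 to 149 CPM in DMSO. It was high at 358 and 226 CPM in 3 nM replicates 4 and 6 and at 289 and 291 CPM in 10 nM replicates 1 and 5. What set it off were its low values of 21.6 and 15.8 CPM in 10 nM replicates 2 and 3. Its log2 fold change at 10 nM was 0.39 ± 0.60 (edgeR adjusted p = 0.666) with all libraries and -1.54 ± 0.44 (adjusted p = 0.0865) without the 5 libraries apart. The gene ndufv3, a small subunit of complex I, lay at 24.3 to 29.1 CPM in DMSO and at 30.9 to 40.3 CPM at 10 nM, so that the ranges did not overlap, as was so for 2.93% of all genes in that direction, and its change of 0.37 ± 0.15 was not called (adjusted p = 0.0962).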
